A study of Mus musculus with 12 samples.

Results

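Presynaptic vesicle release genes encode the proteins that fill, dock, prime, fuse and recycle the synaptic vesicles of neurons. The 40 members were chosen by name as the rows of 3 deposited gene tables that match a list, out of 23951 rows in each. That list was drawn up with earlier results of these data known. Counts of members beside the share of all genes are therefore description only. All 40 were found, all reached at least 1 RPKM (a read count scaled to transcript length and library size) and all were tested by the authors. The RNA was cortical, from C57BL/6 mice that differ in Mir137, which encodes a brain microRNA. The groups are miR-137 KO (KO), the heterozygote labelled miR-137/+ (Het) and wildtype (WT), with 4 libraries each, 12 in all. The sources used here do not give age, sex or how the allele was made. The stated question is the part of this microRNA in the developing nervous system.

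A synaptic vesicle fuses when a vesicle SNARE protein zips up with SNARE proteins of the plasma membrane. Synaptotagmins and complexins make that step depend on calcium, priming factors and the active zone scaffold hold vesicles ready, and endocytic proteins retrieve the membrane afterwards. A microRNA lowers its targets by pairing its seed, bases 2 to 8, with a site in the 3′ UTR of a messenger RNA. Cplx1, Nsf, Syn3 and Syt1 are published miR-137 targets among the members.

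The mature microRNA is shown because its seed, in capitals, defines the sites searched for in the members. It lies at chr3:118433901-118433923 on the plus strand of GRCm38.p6, and the sequence is from RefSeq.
miR-137-3p: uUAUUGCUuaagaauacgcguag

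Sites were sought in the longest 3′ UTR that GENCODE M21 gives each gene, on the strand of the transcript. The letters searched were AGCAATA, which pairs with bases 2 to 8, and GCAATAA, which pairs with bases 2 to 7 and has an A opposite base 1. A run of AGCAATAA holds both and was counted once. All 40 members had a 3′ UTR, of a median 2310 bases, and 12 of them (30%) held at least 1 site. Among 12398 measured genes, whose median 3′ UTR had 1244 bases, 16.1% held a site. In 10 bins of 3′ UTR length, the share averaged over the bins of the members was 23.6%. The letters AGCAATA stood in the 3′ UTR of 8 members, and their reverse complement in 4. Neither count was made over all measured genes, so the pair cannot show anything particular to the members. Of the 14 sites in members, 4 ran into AATAAA, the letters of the polyadenylation signal: 1 each in Nsf, Syn2, Sv2a and Synj1. Those in Nsf and Syn2 each had 19 bases left to the end of the 3′ UTR. Those in Sv2a and Synj1 had 1138 and 2034 bases left, so there the letters were not at the end of the transcript searched.

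The 10 sites below belong to members whose levels passed the test in at least 1 comparison and to published targets. Each line ends at the last base of the site, which is in capitals, and all lie in 3′ UTR exons on GRCm38.
Sh3gl2, chr4:85637009-85637038, plus strand: ggtggttggcttgttgaatctctAGCAATA
Syn2, chr6:115276511-115276540, plus strand: gattctcttgtacagctcaatgtGCAATAA
Nsf, chr11:103821801-103821830, minus strand: tgtgtaatgcaaattgaaggaatGCAATAA
Bsn, chr9:108098903-108098932, minus strand: acagggagaaacgttgatttagaAGCAATA
Rab3c, chr13:110059697-110059726, minus strand: ggggcataaagtagaatttctttGCAATAA
Synj1, chr16:90938135-90938164, minus strand: aatggggcattagtcagtcatgtGCAATAA
Synj1, chr16:90936677-90936706, minus strand: gctgcagccatcactcgctgttAGCAATAA
Synj1, chr16:90936411-90936440, minus strand: gtgaaccactgtaatgtctgcagAGCAATA
Syt1, chr10:108500318-108500347, minus strand: cctccaaatctactcttcttttaAGCAATA
Cplx1, chr5:108519498-108519527, minus strand: aattccatggccagaggaaacacAGCAATA

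Syn3 held none of these letters in the 3′ UTR searched, which says nothing about sites of other forms or in other transcripts. The other sites were in Syt7, Rims2, Sv2a and Gad2.

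The tables give 1 RPKM value per genotype, so the 4 libraries are merged, there is no SD to give, and library depth is unknown. The verbs rose and fell are kept for genes whose q, the authors' adjusted p over the whole table, is below 0.05. Library titles are numbered in pairs and do not say whether each is another animal, so a p measures only library spread, which may be technical. The same genotype differs slightly between tables, by a median of 0.473% for KO, 0.680% for Het and 0.0573% for WT. KO and WT values below come from the table of KO against WT and Het values from that of Het against WT, except where KO is set against Het. Mir137 itself was listed at 0 in all 3 genotypes, so it does not check the labels.

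The presynaptic release genes that passed in KO cortex were all lower, with endocytic, active zone, vesicle and fusion genes among them. By the authors' deposited table for KO and WT, 12 of 40 members (30%) were lower and 0 were higher, where 7.68% of 14059 tested genes were lower and 6.72% higher. Among tested genes of at least 10 RPKM, 7.68% were lower and 8.74% higher. By the authors' unadjusted p below 0.05, 19 members were lower and 3 higher in KO, where 13.2% of all tested genes were lower and 13.3% higher. In Het, 5 members (12.5%) were lower and 1 was higher in the authors' deposited table, where 5.06% of 14159 genes were lower and 3.95% higher, or 4.65% and 4.34% of genes of at least 10 RPKM. At the unadjusted threshold, 11 members were lower and 3 higher in Het, where 10.2% of tested genes were lower and 9.25% higher. The authors' deposited table of KO against Het had 1 member lower and 0 higher, where 0.953% of 14062 genes were lower and 0.917% higher, or 1.12% and 0.954% of genes of at least 10 RPKM. By the unadjusted p of the same deposited table, 5 members were lower and 0 higher, where 4.94% of tested genes were lower and 4.88% higher. In all, 14 members passed in at least 1 comparison and 26 in none.

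The median log2 fold of the 40 members, on the scale of RPKM + 1, was -0.16 in KO against WT, -0.14 in Het against WT and -0.09 in KO against Het. The median of all measured genes was 0.01, 0.01 and 0.00 in the same comparisons. Summed over the 40, levels were 5915 RPKM in KO, 6289 RPKM in Het and 6964 RPKM in WT. Values lay below WT for 32 members in KO and for 30 members in Het, most of them without passing the test. KO against WT and Het against WT share the WT libraries, so a gene that is low in both does not count as seen again. In bulk tissue, fewer cells of a type and less RNA per cell cannot be told apart.

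**Figure D1:**
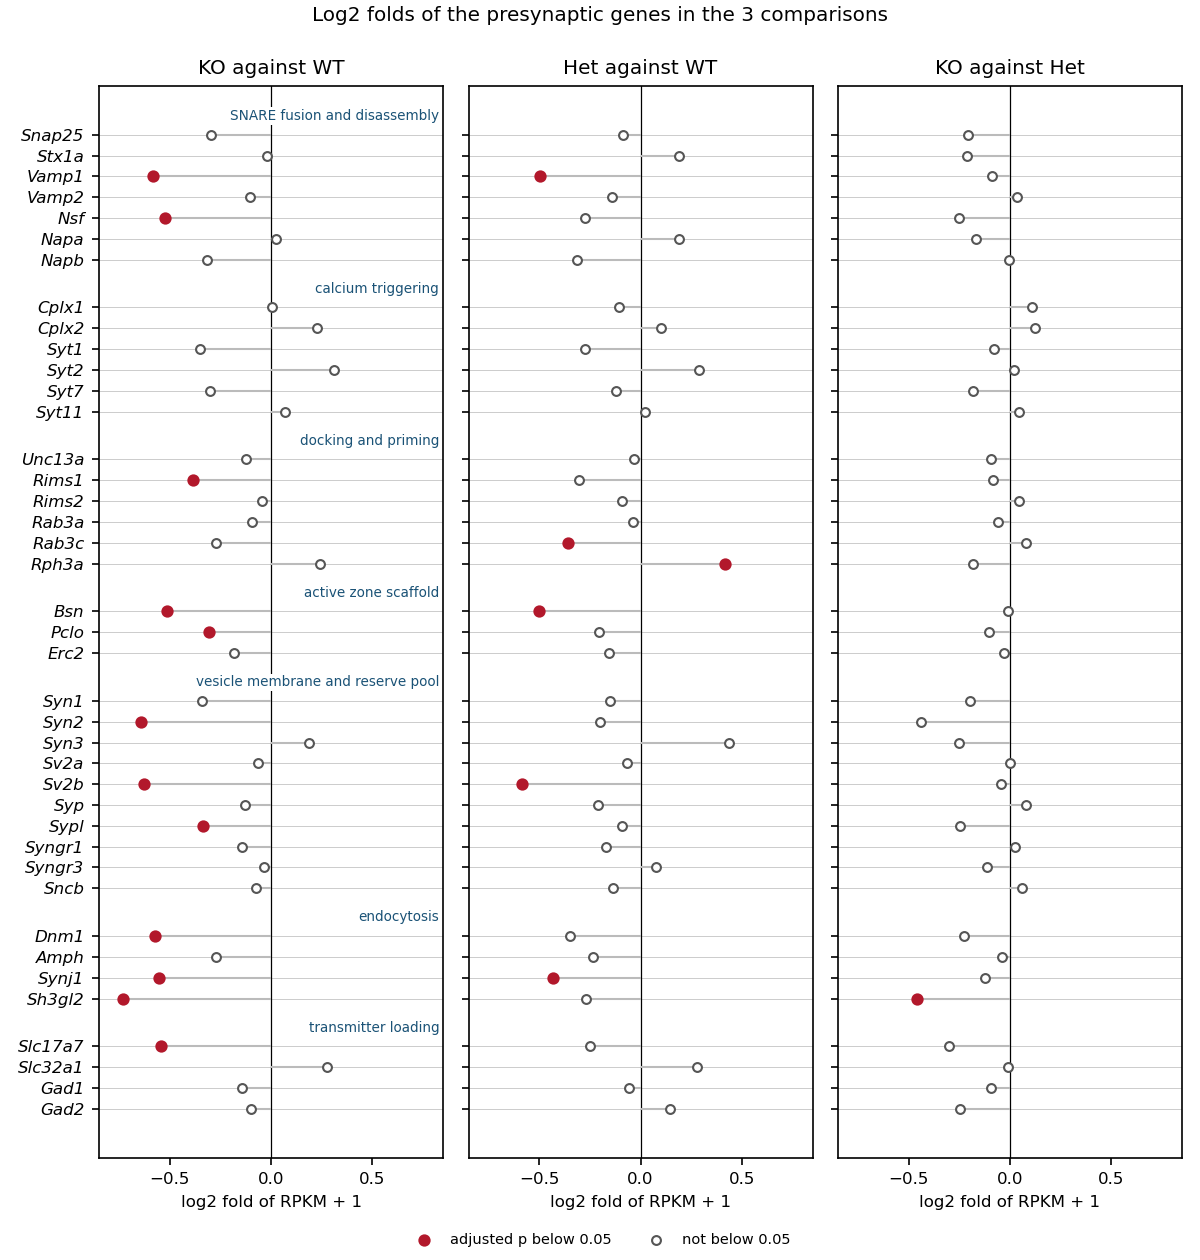
Log2 folds of RPKM + 1 (x axes) of the 40 presynaptic genes (rows, grouped by role) in KO against WT, Het against WT and KO against Het; filled points passed an adjusted p of 0.05 in the authors' tables. In KO 12 genes were lower, in Het 5 were lower and 1 higher, and between KO and Het only Sh3gl2 passed.

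Of the 4 endocytic genes, 3 fell in KO and 1 in Het in the authors' deposited tables. Counts by role were not tested against each other. Each is to be read beside the shares of all tested genes. These were 7.68% lower and 6.72% higher in KO, and 5.06% lower and 3.95% higher in Het.

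Sh3gl2 encodes endophilin A, which bends membrane at the neck of a budding vesicle. Its level was 87.3 RPKM in KO, 121 RPKM in Het and 146 RPKM in WT. KO was lowest, at 60.0% of WT, and Het lay between, at 82.8% of WT. The log2 fold of KO against WT was -0.73, the largest fall among the members (authors' deposited table, q = 0.000987). For Het against WT the log2 fold was -0.27 (authors' deposited table, q = 0.138). Sh3gl2 was also the member that passed between KO and Het, at 87.8 RPKM in KO and 121 RPKM in Het (log2 fold -0.46, authors' deposited table, q = 0.0436). The site printed above for Sh3gl2 starts at base 222 of its 3′ UTR.

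Synj1 encodes synaptojanin, the lipid phosphatase that helps to strip clathrin from retrieved vesicles. It stood at 43.2 RPKM in KO, 47.1 RPKM in Het and 64.0 RPKM in WT. Both mutant levels were well under WT, at 67.5% of WT in KO and 73.7% in Het. The fall was -0.56 in KO on the log2 scale (authors' deposited table, q = 0.000987). In Het it was -0.43 (authors' deposited table, q = 0.00928). With 3 sites, Synj1 had the most of any member.

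Dnm1 encodes dynamin, the GTPase that pinches vesicles off the membrane. Its level was 188 RPKM in KO, 219 RPKM in Het and 279.7 RPKM in WT, so that Het lay between the others. KO was 67.1% of WT, a log2 fold of -0.57 (authors' deposited table, q = 0.000987). Het was 78.4% of WT and missed the threshold (authors' deposited table, q = 0.0932). Amph encodes amphiphysin, a partner of dynamin and clathrin. It had 109 RPKM in KO, 112 RPKM in Het and 133 RPKM in WT, and passed in neither table (authors' deposited tables, q = 0.122 in KO and 0.224 in Het).

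Of the 3 active zone scaffold genes, 2 fell in KO and 1 in Het in the authors' deposited tables. Bsn encodes bassoon, a giant protein that organises the active zone. It stood at 14.6 RPKM in KO, 14.7 RPKM in Het and 21.3 RPKM in WT. KO and Het were nearly level, both about 69% of WT, at 68.6% and 69.1%. The log2 fold was -0.51 in KO (authors' deposited table, q = 0.000987). It was -0.50 in Het (authors' deposited table, q = 0.00135).

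Pclo encodes piccolo, the close relative of bassoon. Its level was 10.4 RPKM in KO, 11.3 RPKM in Het and 13.2 RPKM in WT, with KO lowest. KO fell by 0.31 on the log2 scale, near the threshold (authors' deposited table, q = 0.0456). Adjusted over all 3 comparisons together, the p for Pclo in KO became 0.0688. In Het the log2 fold was -0.21 (authors' deposited table, q = 0.247). Erc2, an ELKS family protein of the same scaffold, had 50.4 RPKM in KO, 51.3 RPKM in Het and 57.3 RPKM in WT and passed in neither (authors' deposited table, q = 0.336 in KO).

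Vesicle membrane and reserve pool genes fell in 3 of 10 members in KO and 1 of 10 in Het in the authors' deposited tables. Sv2b encodes a glycoprotein of the vesicle membrane. It had 84.0 RPKM in KO, 86.7 RPKM in Het and 130.4 RPKM in WT, so both mutants lay well below WT and close to each other. The log2 fold was -0.63 in KO (authors' deposited table, q = 0.000987). In Het it was -0.58, the largest fall of that comparison among the members (authors' deposited table, q = 0.00135). Its relative Sv2a, the target of the antiepileptic drug levetiracetam, stood at 105 RPKM in KO, 105 RPKM in Het and 110.1 RPKM in WT. Sv2a passed in neither table (authors' deposited tables, q = 0.797 in KO and 0.856 in Het), and the share of Sv2b in the summed level of both was 44.4% in KO, 45.2% in Het and 54.2% in WT.

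Synapsins tether vesicles of the reserve pool to actin. Syn2 had 161 RPKM in KO, 218 RPKM in Het and 252 RPKM in WT, with KO lowest. KO was 63.9% of WT, a log2 fold of -0.64 (authors' deposited table, q = 0.000987). Het was 86.8% of WT (authors' deposited table, q = 0.481). Between KO and Het the log2 fold was -0.44 (authors' deposited table, q = 0.107; 0.0394 when adjusted over the 3 comparisons together).

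Syn1 stood at 136 RPKM in KO, 155 RPKM in Het and 172 RPKM in WT, in the same order as Syn2. It passed in neither table (authors' deposited tables, q = 0.116 in KO and 0.694 in Het). Syn3, a synapsin known for early expression in developing neurons and a published target, had the reverse order of KO and WT, with 8.46 RPKM in KO, 10.3 RPKM in Het and 7.31 RPKM in WT. Syn3 passed in neither table. The log2 fold was 0.19 in KO (authors' deposited table, q = 0.598). In Het it was 0.44, the highest of the members (authors' deposited table, q = 0.111). The exons of Syn3 overlap those of Timp3 on the other strand over 14.1% of their length in GENCODE M21, and no source used here says whether the counting used strand, so their reads may not be told apart.

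Sypl is a synaptophysin relative also found outside neurons. It stood at 7.24 RPKM in KO, 8.78 RPKM in Het and 9.43 RPKM in WT. Only KO passed, at a log2 fold of -0.34 (authors' deposited table, q = 0.0390), and adjusted over the 3 comparisons together its p was 0.0592. Synaptophysin itself, Syp, is one of the most abundant vesicle proteins. Its level was 574 RPKM in KO, 543 RPKM in Het and 628 RPKM in WT and passed in neither table (authors' deposited tables, q = 0.628 in KO and 0.502 in Het). The exons of Syp overlap those of Gm14703 on the other strand over 16.8% of their length. The synaptogyrins Syngr1 and Syngr3 and the synuclein Sncb had log2 folds between -0.17 and 0.08 in both comparisons, and none passed.

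Fusion genes fell in 2 of 7 members in KO and 1 of 7 in Het in the authors' deposited tables. Vamp1 encodes a vesicle SNARE, the minor form in these cortices. It had 20.5 RPKM in KO, 21.8 RPKM in Het and 31.1 RPKM in WT, with both mutants far below WT. The log2 fold was -0.58 in KO (authors' deposited table, q = 0.000987). It was -0.50 in Het (authors' deposited table, q = 0.00135). The major vesicle SNARE, Vamp2, stood at 494 RPKM in KO, 481 RPKM in Het and 531 RPKM in WT, within 10% of WT in both, and did not pass (authors' deposited tables, q = 0.695 in KO and 0.675 in Het). Vamp1 made up 3.98% of the pair in KO, 4.33% in Het and 5.54% in WT.

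Nsf encodes the ATPase that takes spent SNARE complexes apart, and is a published target. Its level was 227 RPKM in KO, 270.4 RPKM in Het and 327 RPKM in WT, with Het between the others. KO was 69.4% of WT, a log2 fold of -0.53 (authors' deposited table, q = 0.00179). Het was 82.7% of WT, at -0.27 (authors' deposited table, q = 0.265). The site of Nsf printed above starts at base 1431 of the 3′ UTR, with 19 bases left to the end, and runs into AATAAA.

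The NSF adaptors Napa and Napb did not pass in either table. Napb, the brain form, had 130.1 RPKM in KO, 130.4 RPKM in Het and 162 RPKM in WT, about 80% of WT in both mutants at 80.1% and 80.4% (authors' deposited tables, q = 0.0679 in KO and 0.0795 in Het). Napa stood at 94.1 RPKM in KO, 106 RPKM in Het and 92.7 RPKM in WT. Of the plasma membrane SNAREs, Snap25 had the highest level of all members, at 666 RPKM in KO, 769 RPKM in Het and 819 RPKM in WT. Its adjusted p was 0.181 in KO and 0.862 in Het in the authors' deposited tables. Stx1a, the syntaxin, had 81.6 RPKM in KO, 94.6 RPKM in Het and 82.8 RPKM in WT.

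Of the 6 genes of calcium triggering, none passed in any comparison. With 7.68% of all tested genes lower and 6.72% higher in KO, and fewer in Het, 0 of 6 is near the background. Syt1 encodes the main calcium sensor of fast release and is a published target. It stood at 281 RPKM in KO, 297 RPKM in Het and 359 RPKM in WT, so both mutants lay below WT. The log2 fold was -0.35 in KO (authors' deposited table, q = 0.1005). In Het it was -0.27 (authors' deposited table, q = 0.323). Cplx1, a complexin that clamps and promotes fusion and a published target, had 263 RPKM in KO, 244 RPKM in Het and 263 RPKM in WT. Those values were nearly equal in KO and WT (log2 fold 0.00, authors' deposited table, q = 0.995).

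Cplx2, the other complexin, ran the other way from Syt1, at 364 RPKM in KO, 333 RPKM in Het and 311 RPKM in WT (authors' deposited table, q = 0.352 in KO). Syt7, a slow calcium sensor, had 39.4 RPKM in KO, 44.8 RPKM in Het and 48.9 RPKM in WT (authors' deposited table, q = 0.0718 in KO). Syt2, a fast sensor that is more typical of hindbrain, was the member with the lowest level, at 2.89 RPKM in KO, 2.84 RPKM in Het and 2.14 RPKM in WT. Syt11, an atypical synaptotagmin, stayed between 168 and 176 RPKM. None of these differences passed the test, which does not show that the levels were equal.

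Of the 6 docking and priming genes, 1 fell in KO, and in Het 1 fell and 1 rose in the authors' deposited tables. Counts of 1 among 6 genes are near the background of 7.68% lower in KO, and 5.06% lower and 3.95% higher in Het. Rims1 encodes a RIM protein that links vesicles, calcium channels and the priming factor Unc13a. Its level was 19.2 RPKM in KO, 20.3 RPKM in Het and 25.3 RPKM in WT, and both mutants were below WT. KO passed at a log2 fold of -0.39 (authors' deposited table, q = 0.0165). Het, at -0.30, did not (authors' deposited table, q = 0.0753). Rims2 stood at 12.7 RPKM in KO, 12.2 RPKM in Het and 13.1 RPKM in WT, close together.

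Rab3 proteins are GTPases that mark vesicles for docking. Rab3c had 53.6 RPKM in KO, 50.6 RPKM in Het and 65.1 RPKM in WT, with Het lowest. It fell in Het, by 0.36 on the log2 scale (authors' deposited table, q = 0.0335). In KO the log2 fold was -0.27 (authors' deposited table, q = 0.125). Rab3a, the main form, stood at 336 RPKM in KO, 349 RPKM in Het and 359 RPKM in WT and passed in neither (authors' deposited tables, q = 0.702 in KO and 0.935 in Het).

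Rph3a encodes rabphilin, which binds Rab3 on the vesicle. It was the member that rose in Het, at 73.9 RPKM in KO, 83.7 RPKM in Het and 62.4 RPKM in WT, with Het highest. The log2 fold was 0.42 in Het (authors' deposited table, q = 0.00520). In KO it was 0.24 and missed the threshold (authors' deposited table, q = 0.170). KO against Het did not pass for Rph3a or for Rab3c (authors' deposited table, q = 0.748 and 0.958). The priming factor gene Unc13a had 41.4 RPKM in KO, 44.2 RPKM in Het and 45.3 RPKM in WT (authors' deposited table, q = 0.549 in KO).

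**Figure D2:**
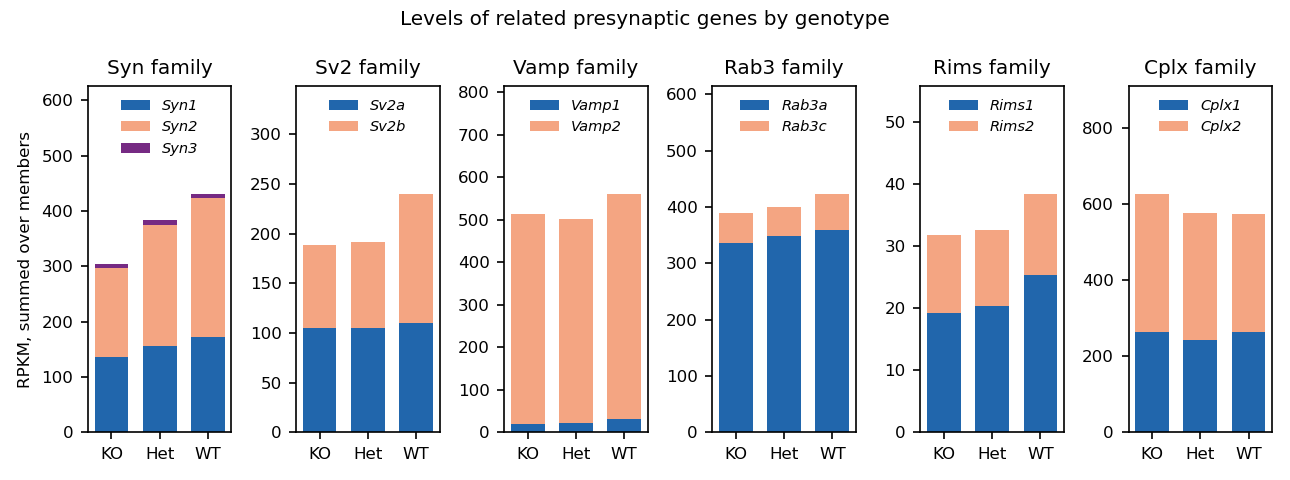
Summed RPKM (y axes, each from 0) of 6 families of related presynaptic genes in KO, Het and WT, with the bars split by gene; 1 pooled value per genotype, so no error bars. Sv2b was 84.0 RPKM in KO and 86.7 RPKM in Het against 130.4 RPKM in WT, beside Sv2a at 105, 105 and 110.1 RPKM, and Syn2 was 161 RPKM in KO against 252 RPKM in WT.

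Of the transmitter loading genes, 1 of 4 fell in KO and 0 of 4 in Het in the authors' deposited tables. Slc17a7 encodes the vesicular glutamate transporter of most cortical excitatory neurons. It had 393 RPKM in KO, 484 RPKM in Het and 575 RPKM in WT, with Het between the others. KO was 68.4% of WT, a log2 fold of -0.55 (authors' deposited table, q = 0.000987). Het was 84.2% of WT (authors' deposited table, q = 0.414). Between KO and Het the log2 fold was -0.30 (authors' deposited table, q = 0.507).

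Slc32a1 encodes the vesicular transporter for GABA. It stood at 31.2 RPKM in KO, 31.3 RPKM in Het and 25.6 RPKM in WT, so both mutants lay above WT, but neither passed (authors' deposited tables, q = 0.124 in KO and 0.106 in Het). On the RPKM scale, which is per length, the level of Slc17a7 was 12.6 times that of Slc32a1 in KO, 15.4 times in Het and 22.4 times in WT. No test was run on that ratio. The exons of Slc32a1 overlap those of Gm14205 on the other strand over 24.9% of their length. The GABA synthesis enzymes did not pass: Gad1 had 72.9 RPKM in KO, 77.6 RPKM in Het and 80.7 RPKM in WT. Gad2 had 37.2 RPKM in KO, 44.3 RPKM in Het and 39.9 RPKM in WT.

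**Figure D3:**
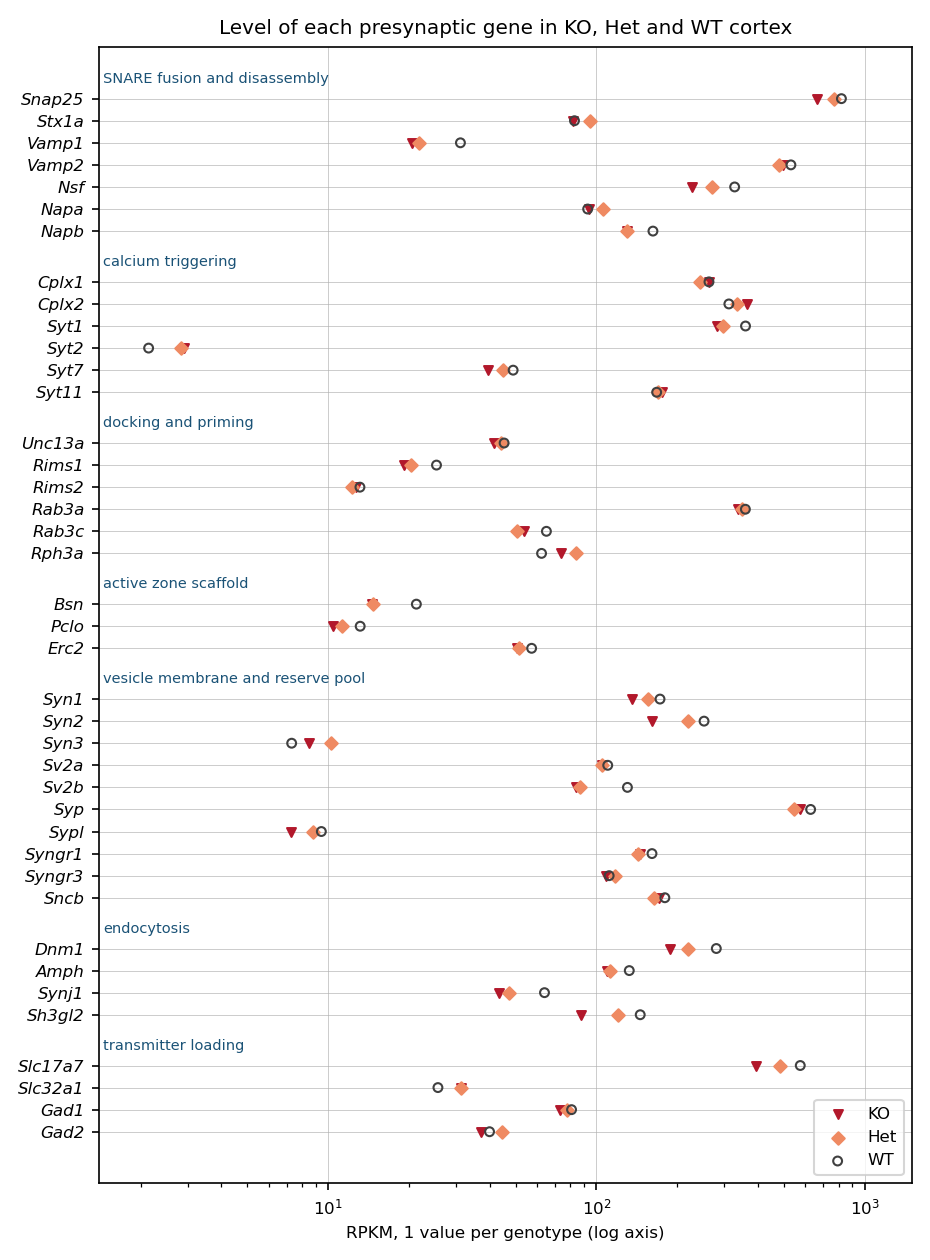
RPKM of each presynaptic gene (x axis, log scale) in KO, Het and WT cortex, with genes in rows by role; each point is 1 pooled value. WT levels run over the members between 2.14 RPKM for Syt2 and 819 RPKM for Snap25, and the points of KO lie left of WT for 32 of the 40 genes.

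The members were also split by whether the 3′ UTR held a seed match. Of the 12 members with a site, 5 were lower and 0 higher in KO in the authors' deposited table, with a median log2 fold of -0.33. Of the 28 with no site, 7 were lower and 0 higher, with a median of -0.14. In Het, 3 of the 12 were lower and 0 higher, against 2 lower and 1 higher of the 28. Of all tested genes, 7.68% were lower in KO and 5.06% in Het. With 6.72% of all tested genes higher in KO and 3.95% in Het, a count of 0 higher among 12 genes is near the background. Over all measured genes, the median log2 fold in KO against WT was -0.01 for 2002 genes with a site and 0.01 for 10396 with none. The difference between members with and without a site was not tested. Of the 4 published targets, Nsf fell in KO, and Cplx1, Syn3 and Syt1 passed in no comparison.

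**Figure D4:**
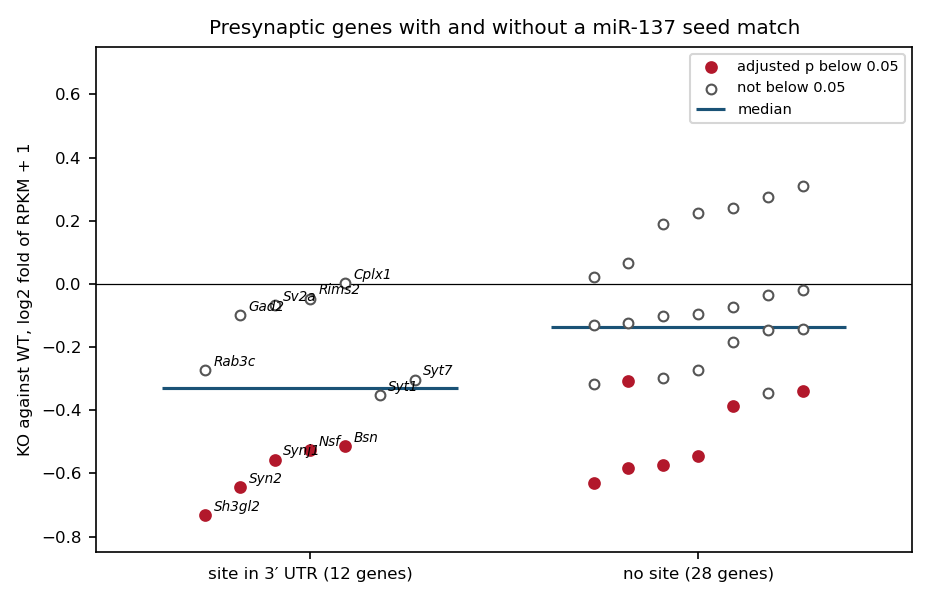
Log2 fold of RPKM + 1 in KO against WT (y axis) of the 12 presynaptic genes with a miR-137 site in the 3′ UTR and the 28 without; filled points passed an adjusted p of 0.05 in the authors' table and lines are medians, -0.33 with a site and -0.14 without. The 5 genes with a site that passed all lie below 0, as do the 7 without a site that passed.

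Markers of several cell types moved in the same tables, where 7.68% of all tested genes were lower and 6.72% higher in KO. In Het the shares were 5.06% lower and 3.95% higher. Striatal projection neurons are GABAergic and do not use Slc17a7, and all 15 of their markers rose in KO and in Het in the authors' deposited tables. Summed, they had 602 RPKM in KO, 581 RPKM in Het and 103 RPKM in WT. Immature neuron genes rose in 9 of 11 in KO and 7 of 11 in Het, with sums of 3725 RPKM in KO, 3078 RPKM in Het and 2525 RPKM in WT. Thalamic markers fell in 6 of 7 in KO and 3 of 7 in Het, with sums of 98.7 RPKM in KO, 106 RPKM in Het and 135 RPKM in WT. Choroid plexus markers, which are not neuronal, fell in 9 of 10 in both, with sums of 91.0 RPKM in KO, 295 RPKM in Het and 2083 RPKM in WT. None of these markers was listed at 0 in both genotypes of a comparison. Their part in the presynaptic results was not tested.

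Markers of cortical neurons were counted in the same way. Beside the shares of all tested genes just given, a count of 1 among 7 to 12 genes is near the background. Between KO and Het, 0.953% of tested genes were lower. Among 12 pan-neuronal genes, 2 rose in KO and 1 fell in Het in the authors' deposited tables, and their sums were 2584 RPKM in KO, 2393 RPKM in Het and 2438 RPKM in WT. The 2 that rose were Tubb3 and Elavl3. Tubb3, at 607 RPKM in KO and 430 RPKM in WT, is also counted among the immature neuron genes that rose in KO. It therefore weighs heavily in the pan-neuronal sum. The median log2 fold of the 12 was 0.03 in KO and -0.02 in Het. Among 11 markers of cortical excitatory neurons, 1 rose in KO, and in Het 3 rose and 1 fell. Their sums were 1726 RPKM in KO, 1742 RPKM in Het and 1774 RPKM in WT, where Slc17a7 was 68.4% of WT in KO. Sums weigh abundant genes most, and the median log2 fold of these markers had the other sign, at 0.17 in KO and 0.19 in Het. Among 12 interneuron markers, 1 fell in KO, and in Het 3 rose and 1 fell, with sums of 872 RPKM in KO, 822 RPKM in Het and 862 RPKM in WT. Their median log2 fold was 0.04 in KO and 0.25 in Het, so in Het the median and the sum differ in sign. Among 8 astrocyte markers 1 fell in KO, and in Het 1 rose and 1 fell. Meningeal fibroblasts and oligodendrocytes, which make myelin, are not neurons. Among 7 markers of meningeal fibroblasts 1 fell in KO and 4 in Het, with sums of 50.0 RPKM in KO, 27.6 RPKM in Het and 59.9 RPKM in WT. Among 8 oligodendrocyte markers 3 fell in KO and 2 rose in Het, and 7 were lower in KO than in Het, with sums of 913 RPKM in KO, 1579 RPKM in Het and 1155 RPKM in WT. The part of these lists in the presynaptic results was likewise not tested.

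**Figure D5:**
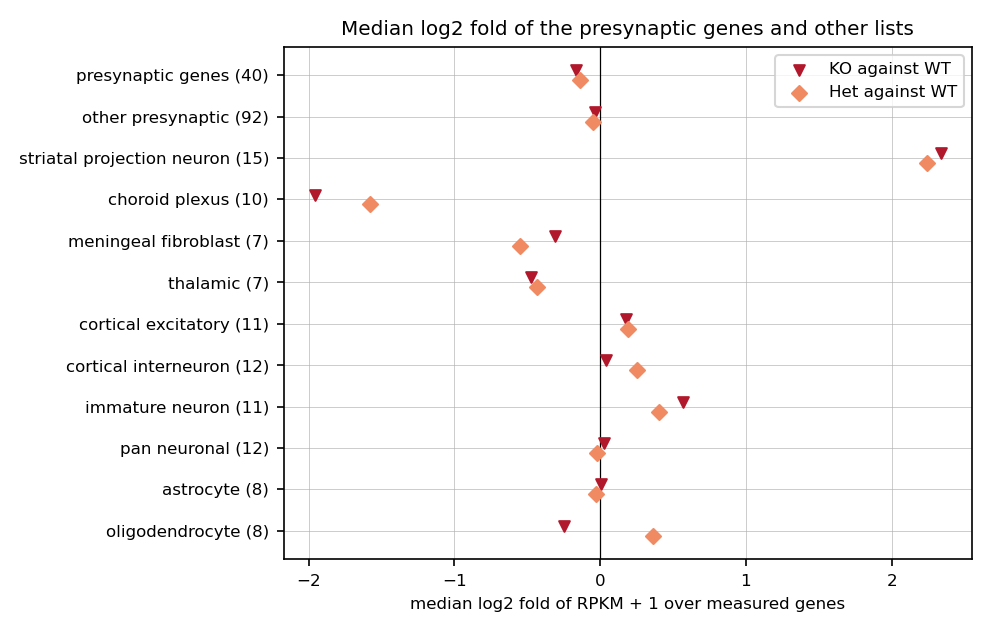
Median log2 fold of RPKM + 1 (x axis) in KO against WT and Het against WT over the measured genes of each list, with the number of genes in parentheses. The presynaptic genes sit at -0.16 in KO and -0.14 in Het, pan-neuronal genes at 0.03 and -0.02, and striatal projection neuron markers at 2.34 and 2.24.

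A second list held 92 other genes of the presynapse, all of them measured. In KO, 13 of the 92 were lower and 7 higher in the authors' deposited table, with a median log2 fold of -0.03. Of all tested genes, 7.68% were lower and 6.72% higher in KO. In Het, 8 of the 92 were lower and 3 higher, with a median of -0.05, where 5.06% of tested genes were lower and 3.95% higher. Between KO and Het, 1 was lower and 3 were higher, where 0.953% of tested genes were lower and 0.917% higher.

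Among these, Slc6a17, a vesicular amino acid transporter, fell in KO, at 46.3 RPKM in KO and 74.5 RPKM in WT (authors' deposited table, q = 0.000987). Pacsin1, which encodes syndapin, a dynamin partner in endocytosis, fell to 41.0 RPKM in KO, against 63.1 RPKM in WT (authors' deposited table, q = 0.000987). Dnajc6 encodes auxilin, which uncoats clathrin vesicles alongside synaptojanin. It had 58.3 RPKM in KO and 84.7 RPKM in WT (authors' deposited table, q = 0.000987). In the other direction, Unc13c, a priming factor best known in cerebellum, had 6.88 RPKM in KO and 4.28 RPKM in WT (authors' deposited table, q = 0.000987).

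In Het, the synaptotagmin Syt17 stood at 15.4 RPKM in Het and 26.6 RPKM in WT (authors' deposited table, q = 0.00135). Syt9, another synaptotagmin, had 2.40 RPKM in Het and 4.71 RPKM in WT (authors' deposited table, q = 0.00135). Cadps2 encodes a factor of dense core vesicle release. It had 21.8 RPKM in Het and 32.5 RPKM in WT, and thus fell (authors' deposited table, q = 0.00135). Synpr, a synaptophysin relative, rose, with 90.8 RPKM in Het and 64.7 RPKM in WT (authors' deposited table, q = 0.00135).

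KO and Het differed in Synpr and Cadps2 as well. Synpr was lower in KO, at 66.6 RPKM in KO and 91.4 RPKM in Het (authors' deposited table, q = 0.0184). Cadps2 was higher in KO, at 29.8 RPKM in KO and 21.9 RPKM in Het (authors' deposited table, q = 0.0375). Apba1, a Munc18 binding adaptor, was also higher, with 57.9 RPKM in KO and 40.8 RPKM in Het (authors' deposited table, q = 0.0154).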

How the data were processed

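Cortex RNA was made into TruSeq v2 libraries and sequenced from both ends, per the labels' protocols. The build mm9 is in the submitters' processing notes, which also list Cuffdiff 2.2.1, TopHat2 2.0.13 and CASAVA 1.4 without their roles; no annotation is stated. The authors deposited 3 pairwise tables holding, per the file headers, 1 RPKM level per genotype with a p-value and a q-value for each gene. Columns of per-library values left out numbered 0. Genotypes come from the sample titles.

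With 1 value per genotype no expression test could be run, so calls are the authors' q below 0.05, and genes with p at 1 count as untested. Log2 folds use a pseudocount of 1, and measured genes reach 1 RPKM in at least 1 of the genotypes compared. The members and lists were chosen with earlier results of these data known. Given in full are members called in any comparison and the 4 published targets. Up to 4 called genes of the other presynaptic list, and up to 2 of a marker list, were open to naming in each comparison, by smallest q and then fold. Sites were sought in GENCODE M21 transcripts (GRCm38) joined by gene name, so no coordinate comes from the mm9 tables. The steps were tested on simulated data. Alternatives were q below 0.01, a minimum of 5 RPKM or none, a log2 fold of at least 0.5, joint adjustment of the 3 comparisons, pseudocounts of 0.1 and 0.01, and folds centred on all measured genes. Versions were pandas 2.3.3, numpy 2.4.6, matplotlib 3.10.9 and Python 3.11.15.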

Additional observations from a re-analysis of the deposited data

Results flagged for a closer look

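Sh3gl2, the endophilin gene, was the member whose KO and Het levels differed by the direct test, with a log2 fold of -0.46 in KO against Het (adjusted p = 0.0436 in the authors' deposited table). Its levels were 87.8 RPKM in KO and 121 RPKM in Het. Neither an adjusted p threshold of 0.01 nor a minimum log2 fold of 0.5 left it called.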

How the results depend on the processing

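Between 9 and 12 members were lower in KO under the settings tried, and 0 higher. With a minimum absolute log2 fold of 0.5, members called in Het became 2 of 6, with 2 lower and 0 higher, and in KO against Het 0 of 1. With an adjusted p below 0.01, 0 were called in KO against Het, and with adjustment over the 3 comparisons together 2 were, both lower. The median log2 fold of the members kept its sign in each comparison, and in KO against WT lay between -0.18 and -0.16. Of the 51 folds of named members, 1 changed sign when centred on all measured genes: Cplx1 in KO against WT, to -0.00468, which never passed. An adjusted p below 0.01 ended 5 of the calls of named members (Rab3c in Het; Rims1, Pclo and Sypl in KO; Sh3gl2 between KO and Het), and the minimum fold ended 8. No paired analysis was possible because the tables hold 1 pooled value per genotype, and for the same reason no replicate could be left out. Depth per library is unknown, so it cannot be said how small a difference would pass.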

Other observations

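Vesicular glutamate transporters outside the 40 members include Slc17a6 and Slc17a8. Slc17a6, the transporter typical of thalamic and other subcortical neurons, stood at 15.1 RPKM in KO and 9.16 RPKM in Het (authors' deposited table, q = 0.00517). Against WT it fell in Het, with 9.10 RPKM in Het and 12.6 RPKM in WT (authors' deposited table, q = 0.00434). In KO it had 15.0 RPKM against 12.6 RPKM in WT (authors' deposited table, q = 0.207). Its KO value thus lay above WT while Slc17a7 was lower in KO. Slc17a8, the third transporter, had 1.89 RPKM in KO, 2.45 RPKM in Het and 1.89 RPKM in WT and passed in no comparison. Slc17a8 was chosen after its values were seen. Of 7 thalamic markers, 2 were lower in KO than in Het and 0 higher, where 0.953% of tested genes were lower and 0.917% higher. The 2 lower markers were Prkcd, at 13.5 RPKM in KO and 22.5 RPKM in Het (authors' deposited table, q = 0.00517), and Zic1, at 3.39 RPKM and 5.50 RPKM (authors' deposited table, q = 0.0154). Prkcd had 17.9 RPKM in WT. The marker Tcf7l2 had 1.62 RPKM in KO, 1.99 RPKM in Het and 7.63 RPKM in WT, and did not pass between KO and Het (authors' deposited table, q = 0.746). The part of these markers in the Slc17a6 result was not tested.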
